A study of Mus musculus with 6 samples.

Results

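The liver X receptors (LXRs) are nuclear receptors that sense oxidised cholesterol, and the 10 genes described here are their 2 genes, 6 genes that they are known to switch on, and the 2 genes that turn cholesterol into its storage ester. They were found by symbol in a deposited count table of 41972 entries, which held each of the 10 once, and all 10 were among the 12740 genes that passed the filter on low counts. Nr1h3 passed that filter only through the PBS libraries. The RNA came from bone-marrow-derived macrophages of 6-week-old male wild-type C57BL/6 mice, grown for 6 days in medium with 20% serum and 30% conditioned medium of L-929 cells, a fibroblast line that secretes the macrophage growth factor M-CSF. The control group was kept for 6 h with PBS, and each of the other 2 groups for 6 h with extracellular vesicles (EVs), small membrane particles shed by Aspergillus flavus, a mould, 20 µg being added to each well. Their labels are LD-F1 and LD-F1_b, and in the sample titles each is a strain, with no key to the suffix. Each group holds 2 libraries labelled as biological replicates, with no statement that they came from separate mice, so p-values measure the spread between these libraries only. The comparisons ask how the genes respond to the EVs of each label and whether the responses differ.

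LXRs work as pairs with a retinoid X receptor (RXR). The pair sits on DNA with co-repressors, and oxysterols, the oxidised forms of cholesterol, turn it into an activator when cholesterol builds up. In macrophages the response sends cholesterol out of the cell through the transporters Abca1 and Abcg1 to apolipoproteins such as Apoe, lowers lipoprotein uptake through Mylip, and remodels membranes and fatty acid synthesis through Lpcat3 and Srebf1. Cholesterol that is not exported is esterified in the endoplasmic reticulum by Soat1, the form typical of macrophages, or Soat2, the form typical of liver and intestine, and then stored in lipid droplets.

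LXR and RXR bind a pair of AGGTCA-like hexamers spaced by 4 bases, so the promoters of the genes were searched for that arrangement. RefSeq windows (build GRCm38.p6, 250 bases before to 50 after a start) were matched for 8 of the 10 genes, 13 windows in all; Abcg1 and Soat2 were not matched. The motif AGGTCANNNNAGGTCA was read on both strands with up to 3 mismatches, which 21.9% of all 32851 windows hold. Among the windows of the 8 genes it was met in that of Abca1 and in 1 of the 3 of Srebf1, each time with 3 mismatches. At these places both windows carry the letters GGGTTACTNNCGGTCA, N marking where they differ; these letters overlap the motif and were read off these windows. Only 1 further window of the 32851 holds those letters (0.00913% with Abca1 and Srebf1 included), that of the fatty acid synthase gene Fasn. The 250 bases before each of the 3 starts are shown because the 3 genes share these letters and had different changes with EVs, given below. Capitals mark the shared letters, which stand on the opposite strand to the one printed. A match is a description of the sequence only, and binding was not measured in these data.
Abca1, chr4:53159896-53160145, minus strand: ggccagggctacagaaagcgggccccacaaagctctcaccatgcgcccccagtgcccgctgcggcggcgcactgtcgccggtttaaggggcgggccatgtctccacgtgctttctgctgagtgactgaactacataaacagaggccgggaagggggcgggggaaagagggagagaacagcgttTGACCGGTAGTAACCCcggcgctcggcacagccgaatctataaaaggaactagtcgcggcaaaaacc
Srebf1, chr11:60210472-60210721, minus strand: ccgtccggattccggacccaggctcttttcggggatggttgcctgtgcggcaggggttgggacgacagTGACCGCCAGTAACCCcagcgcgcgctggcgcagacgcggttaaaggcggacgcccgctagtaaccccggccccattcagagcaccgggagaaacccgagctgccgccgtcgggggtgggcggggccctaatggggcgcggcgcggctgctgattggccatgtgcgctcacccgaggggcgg
Fasn, chr11:120824548-120824797, minus strand: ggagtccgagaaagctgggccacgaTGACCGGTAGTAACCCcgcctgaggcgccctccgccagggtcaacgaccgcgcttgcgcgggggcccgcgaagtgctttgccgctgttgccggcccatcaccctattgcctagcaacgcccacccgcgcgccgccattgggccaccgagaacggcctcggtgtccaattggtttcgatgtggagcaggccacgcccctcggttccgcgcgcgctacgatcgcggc
The capitals lie 67 to 52 bases before the start in Abca1, 182 to 167 in Srebf1 and 225 to 210 in Fasn.

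Libraries held 13722215 to 15277997 counts, and 3 counts, taken as the floor, stand for 0.189 to 0.225 CPM, the unit of counts after scaling to equal totals. Floors and counting intervals cover counting error only. Replicates correlated at Pearson's r of 0.9842 (LD-F1), 0.9885 (LD-F1_b) and 0.9910 (PBS) across genes. The LD-F1 replicates stood apart by gene length: over 1260 genes of 8000 bases or more, replicate 1 was above replicate 2 by a median log2 of 0.23, against 0.07 in LD-F1_b and -0.00 in PBS. Among 8 macrophage markers, 7 were in the table, with Adgre1 at 388 to 451, Csf1r at 1142 to 1336 and Cd68 at 533 to 673 CPM, but Itgam had 0 to 4 counts and Mertk 1 to 10. The summed macrophage markers were 3020 to 3025 CPM in PBS, 3314 to 3340 in LD-F1 and 3281 to 3390 in LD-F1_b. Of 6 dendritic cell markers 4 stayed under 1 CPM, with Siglech and Ccr7 at 0, yet their sum was 1.83 to 2.74 CPM in PBS, 8.47 to 8.75 in LD-F1 and 4.63 to 6.54 in LD-F1_b, mostly from Xcr1. All 7 neutrophil markers were under 1 CPM, with S100a9, Ly6g, Elane and Retnlg at 0. Their sum was 0.378 to 0.457 CPM in PBS, 0.675 to 0.925 in LD-F1 and 0.553 to 0.695 in LD-F1_b. The 7 fibroblast markers, with Dcn, Lum and Cxcl12 at 0, summed to 1.44 to 1.64, 2.35 to 2.92 and 2.07 to 2.16 CPM in the same order. These sums moved with the EV groups as the genes below did, and their part in those results was not tested.

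Of the 10 genes, LD-F1 EVs raised 2, Soat2 and Abca1, and lowered 1, Abcg1, while LD-F1_b EVs raised Soat2 and lowered Abcg1. A gene counts as raised or lowered at an adjusted p under 0.05 in edgeR's quasi-likelihood test, with Benjamini-Hochberg adjustment over all 12740 genes. Of all genes tested, 11.4% were higher and 9.87% lower with LD-F1 EVs, and 6.44% and 4.54% with LD-F1_b EVs, so counts of 2 and 1 or of 1 and 1 among 10 genes are near the background. With libraries scaled by their totals alone the split over all genes was 977 higher and 1934 lower for LD-F1, against 1449 and 1258, and 629 and 880 for LD-F1_b, against 820 and 578, and the median of all genes for LD-F1 moved from 0.01 to -0.10. The median log2 fold change over the 10 genes was 0.09 for LD-F1 and 0.10 for LD-F1_b, against 0.01 over all genes in each. In bulk RNA, fewer cells of a type and less RNA per cell cannot be told apart.

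**Figure D1:**
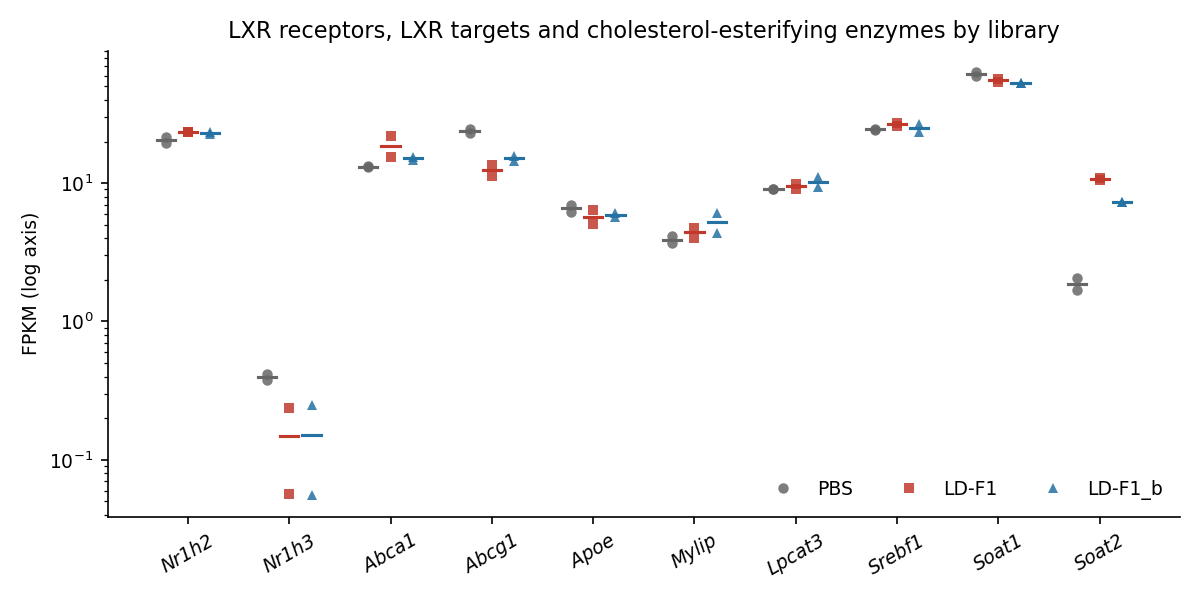
FPKM (CPM per kilobase of gene length, log axis) of the 10 genes in each library, with PBS as grey circles, LD-F1 as red squares, LD-F1_b as blue triangles and a bar at each group mean. Soat2 lies near 2 FPKM in PBS and above 7 in every EV library, Abcg1 lies lower with EVs, and Nr1h3 lies under 1 FPKM in all 6.

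**Figure D2:**
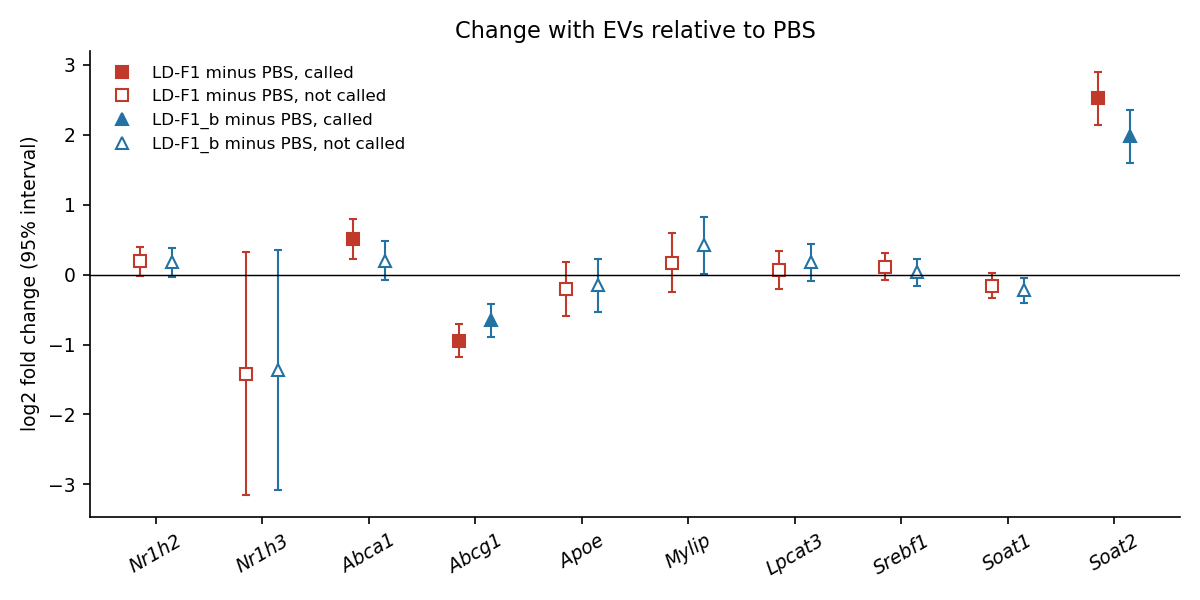
Log2 fold change of each gene with LD-F1 EVs (red squares) and LD-F1_b EVs (blue triangles) relative to PBS, with 95% intervals; filled symbols passed the test. The intervals of Soat2 and Abcg1 leave out 0 on opposite sides for both EVs, and that of Nr1h3 is the widest.

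The receptors themselves were unequal in level, with a mean of 20.5 FPKM (CPM per kilobase) for Nr1h2 and 0.395 for Nr1h3 in PBS. Nr1h2, which encodes LXR beta, the form found in most tissues (chr7:46985585-46989920, minus strand, positions as in the table), had 72.1 and 65.8 CPM in PBS, 78.5 and 79.0 in LD-F1 and 76.5 and 79.3 in LD-F1_b. Every EV library lay above both PBS libraries, but the changes missed the threshold (log2 0.19 ± 0.10 SE, adjusted p = 0.187; and 0.18 ± 0.10, adjusted p = 0.288). Their 95% intervals were -0.02 to 0.40 and -0.03 to 0.38. Nr1h3, which encodes LXR alpha and is itself a known LXR target in human macrophages (chr2:95757176-95778649, minus strand), had 16 and 15 counts in PBS, 8 and 2 in LD-F1 and 2 and 9 in LD-F1_b. All EV libraries held fewer counts than either PBS library, and 1 library of each EV group lay under the floor. Summed over the libraries and scaled, LD-F1 held 0.367 of the PBS level (95% counting interval 0.161 to 0.769, 10 against 31 counts) and LD-F1_b 0.384 (0.174 to 0.784, 11 against 31). Nr1h3 passed the filter on low counts only through the PBS libraries, where it was higher. The order of its libraries and these intervals are therefore a description and not a test of a fall. With the spread between replicates included, neither change passed the test (log2 -1.42 ± 0.80, adjusted p = 0.24; and -1.36 ± 0.78, adjusted p = 0.319), and the intervals ran from -3.16 to 0.32 and from -3.07 to 0.34. Nr1h3 made up 1.42% and 1.43% of the LXR counts in PBS and 0.180% to 0.778% with EVs, so nearly all LXR transcripts counted were those of Nr1h2. Neighbouring genes reach close to Nr1h3, with Acp2 51 bases and Madd 224 bases away. With neither the strand setting nor the handling of multi-mapping reads stated, the level of Nr1h3 is uncertain. The macrophage marker Itgam had only 0 to 4 counts too, and the part of read assignment in such low counts was not tested.

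A list of 24 partners and co-regulators of LXR had 20 tested members, of which LD-F1 EVs raised 1 and lowered 6 (median log2 -0.38), and LD-F1_b EVs raised 0 and lowered 1 (median -0.24). These counts rested on single libraries: without LD-F1 replicate 1 the lowered genes numbered 14 for LD-F1 (median -0.68) and 11 for LD-F1_b, without LD-F1 replicate 2 they numbered 5 (median -0.18) and 11, and with the trend on gene length removed 4 and 2. Without PBS replicate 1 or 2 they numbered 3 and 2 for LD-F1, and for LD-F1_b they numbered 0 without any 1 of the PBS or LD-F1_b libraries. Counts over all genes moved too. For LD-F1 the 1258 genes lowered became 2208 without LD-F1 replicate 1, 1367 without LD-F1 replicate 2 and 524 and 575 without PBS replicate 1 or 2. For LD-F1_b the 578 became 1536 and 1513 without LD-F1 replicate 1 or 2, and 93 to 143 without any 1 of the PBS or LD-F1_b libraries. Rxra, an RXR partner gene, was the only one lowered by both EVs. It had 51.4 and 46.0 CPM in PBS, 36.8 and 30.9 in LD-F1 and 37.1 and 35.8 in LD-F1_b (log2 -0.53, adjusted p = 0.00846, and -0.42 ± 0.12, adjusted p = 0.0438). The EV libraries lay below both PBS libraries. The Rxra call held in 13 of 14 alternatives for LD-F1, not without PBS replicate 1 (adjusted p = 0.126), and in 9 of 14 for LD-F1_b. Its relative Rxrb, picked after its values were seen, was the more abundant, at a mean of 63.2 CPM in PBS, 68.2 in LD-F1 and 67.7 in LD-F1_b. Rxrb was not called with either EV (log2 0.11, adjusted p = 0.503, and 0.10, adjusted p = 0.612). Among the co-activators, Ncoa3 fell with LD-F1 EVs (log2 -0.65 ± 0.12, adjusted p = 0.0022) and so did Ppargc1b (-0.70 ± 0.16, adjusted p = 0.00844), which drives mitochondrial and lipid genes. With LD-F1_b EVs Ncoa3 had log2 -0.33 (adjusted p = 0.106) and Ppargc1b -0.49 (adjusted p = 0.07). Ppard, a fatty acid-sensing nuclear receptor that also pairs with RXR, rose with LD-F1 EVs (0.81 ± 0.15, adjusted p = 0.00194). It had 44.9 and 33.4 CPM in the LD-F1 libraries against 23.0 and 21.5 in PBS. In LD-F1_b it had 31.8 and 28.9 CPM, and the change missed the threshold (log2 0.45, adjusted p = 0.0812).

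Of 9 listed enzymes that make or clear oxysterols, the ligands of LXR, 4 passed the filter on low counts. Ch25h, which makes 25-hydroxycholesterol and was picked after its values were seen, had 0 counts in all 6 libraries. A count of 0 need not mean that the cells lack the transcript, as the macrophage marker Itgam had only 0 to 4 counts.

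The 2 efflux transporters moved apart with LD-F1 EVs. Abca1, which loads cholesterol and phospholipid onto lipid-poor apolipoprotein A-I (chr4:53561151-53692448, minus strand, gene length 10363 bases in the table), had 135 and 137 CPM in PBS, 226 and 161 in LD-F1 and 160 and 152 in LD-F1_b. All EV libraries exceeded both PBS libraries, and LD-F1 replicate 1 stood well above the rest. It was 1.42-fold higher with LD-F1 EVs (log2 0.51 ± 0.13, n = 2 per group, adjusted p = 0.0149 by edgeR, 95% interval 0.23 to 0.79). With LD-F1_b EVs it had log2 0.20 ± 0.13 (adjusted p = 0.382, interval -0.08 to 0.48), which was called with the length trend removed (0.31, adjusted p = 0.0331), when only the 2 groups were fitted (adjusted p = 0.0207) and without LD-F1 replicate 1 or 2 (0.0199 and 0.0165). The size of the LD-F1 change rested on which library was kept. It was 0.24 without LD-F1 replicate 1 (adjusted p = 0.0121) and 0.73 without replicate 2, and with the trend on gene length removed it was 0.64 (adjusted p = 1.30e-04). The call was lost without PBS replicate 1 or 2 (adjusted p = 0.108 and 0.0935), without LD-F1_b replicate 1 or 2 (0.0512 and 0.0523) and when only the 2 groups were fitted (0.0589). Abca1 is among the long genes in which the LD-F1 replicates differ, and the part of that difference in its change was not tested.

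Abcg1, which hands cholesterol to mature HDL particles (chr17:31860999-31920457, plus strand, 4065 bases), had 94.0 and 99.6 CPM in PBS, 54.6 and 46.0 in LD-F1 and 58.8 and 64.3 in LD-F1_b. The EV libraries all lay below both PBS libraries, and those of LD-F1 lay below those of LD-F1_b. It was 1.92-fold lower with LD-F1 EVs (log2 -0.94 ± 0.11, adjusted p = 7.82e-05, interval -1.18 to -0.70) and 1.57-fold lower with LD-F1_b EVs (-0.65 ± 0.11, adjusted p = 0.00226, interval -0.89 to -0.42). Without LD-F1_b replicate 1 the second call was lost (-0.59, adjusted p = 0.0726). Per length, Abcg1 was 1.77 and 1.86 times the level of Abca1 in the PBS libraries, 0.616 and 0.728 in LD-F1 and 0.934 and 1.08 in LD-F1_b. With 2 libraries per group, an exact two-sided permutation test of such a ratio cannot go below p = 0.333, so the ratios are a description. The order of the transporters per length was thus Abcg1 above Abca1 in PBS and Abca1 above Abcg1 in LD-F1, while in LD-F1_b their ranges overlapped.

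**Figure D3:**
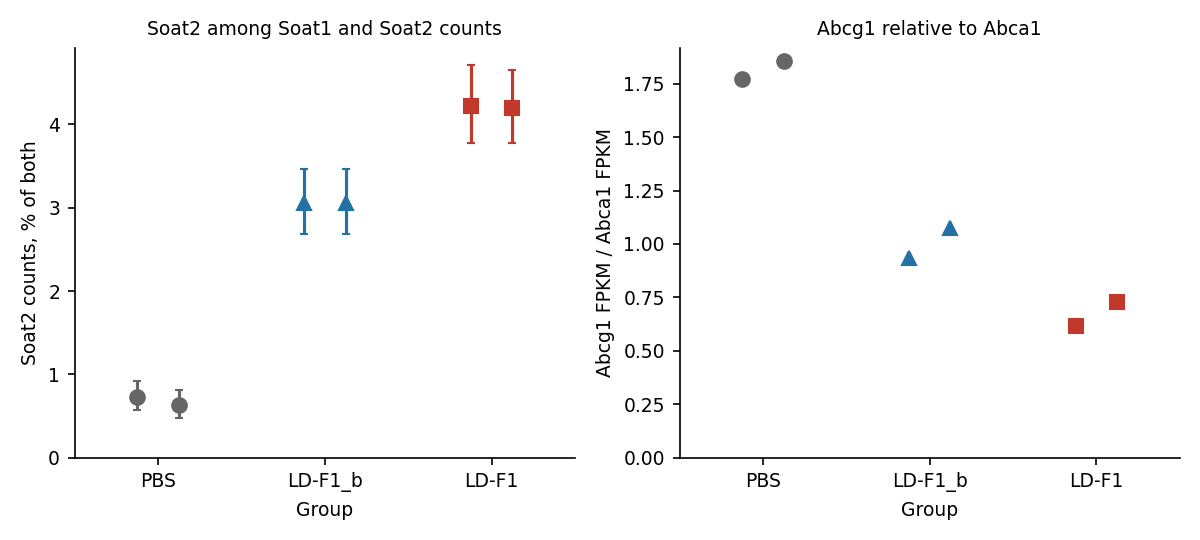
Left, Soat2 counts as a percentage of Soat1 and Soat2 counts in each library, with exact binomial 95% intervals; right, Abcg1 FPKM divided by Abca1 FPKM in each library. PBS (grey circles) is lowest on the left, under 1%, and highest on the right, above 1.75, and LD-F1 (red squares) is at the other end of each, with LD-F1_b (blue triangles) between.

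Of 13 further genes of the ABCA and ABCG families, which carry lipids and related cargo, 12 were in the table and 7 were tested. LD-F1 EVs lowered 4 and raised 0 (median log2 -0.85), against 9.87% and 11.4% of all genes tested. LD-F1_b EVs lowered 3 and raised 0 (median -0.57), against 4.54% and 6.44%. For LD-F1 the count lowered was 4 whichever library was left out. For LD-F1_b it was 0 without any 1 of the PBS or LD-F1_b libraries and 4 without either LD-F1 library. Abca9, a transporter found in macrophages, fell from 32.4 and 33.2 CPM in PBS to 17.0 and 14.8 in LD-F1 and 21.1 and 23.1 in LD-F1_b (log2 -1.05 ± 0.13, adjusted p = 1.57e-04; and -0.57 ± 0.13, adjusted p = 0.0143). Abca2, a transporter of endosomes and lysosomes, fell as well (-0.97 ± 0.16, adjusted p = 0.00125; and -0.61 ± 0.16, adjusted p = 0.0292). No member of that list passed the test in the direction of Abca1. Counts over all genes moved too when a library was left out, as given above for the co-regulators. Abca9 belongs to a cluster of similar ABCA genes, so its counts are uncertain where reads match more than 1 of them.

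The remaining targets among the 10 genes did not pass the test with either EV. Apoe, the apolipoprotein that macrophages secrete to accept cholesterol (chr7:18610015-18613072, minus strand), had 13.7 and 12.3 CPM in PBS, 12.6 and 9.96 in LD-F1 and 12.0 and 11.3 in LD-F1_b. The LD-F1 range overlapped that of PBS, and the changes were -0.21 ± 0.18 (adjusted p = 0.449) and -0.16 ± 0.18 (adjusted p = 0.642). Mylip, a ubiquitin ligase that lowers lipoprotein uptake (chr13:45432886-45458608, plus strand), had 11.2 and 12.6 CPM in PBS, 14.5 and 12.3 in LD-F1 and 13.4 and 18.4 in LD-F1_b. LD-F1_b replicate 2 was the highest library. Its changes were 0.17 ± 0.19 (adjusted p = 0.585) and 0.42 ± 0.19 (adjusted p = 0.197, interval 0.01 to 0.83).

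Lpcat3, which puts polyunsaturated fatty acids into membrane phospholipids (chr6:131338716-131391453, plus strand), had 29.7 CPM in both PBS libraries, 29.8 and 32.2 in LD-F1 and 36.4 and 30.6 in LD-F1_b. The groups lay close together and the changes were 0.06 ± 0.13 (adjusted p = 0.783, interval -0.21 to 0.33) and 0.17 ± 0.12 (adjusted p = 0.441, interval -0.10 to 0.44). The table places 334 bases of Lpcat3 over Emg1 on the other strand, and Emg1 rose with LD-F1 EVs (log2 0.35, adjusted p = 0.0367), so with no strand setting given Lpcat3 is uncertain. Of 13 related lysophospholipid acyltransferases, 12 were tested. LD-F1 EVs raised 2 and lowered 2, against 11.4% and 9.87% of all genes tested. LD-F1_b EVs raised 2 and lowered 3, against 6.44% and 4.54%. In this list 8 and 7 genes were not called. Without any 1 of the PBS or LD-F1_b libraries LD-F1_b EVs raised 1 and lowered 0 or 1. Agpat4, which makes phosphatidic acid, rose (1.04 ± 0.11, adjusted p = 3.1e-05; and 0.71 ± 0.11, adjusted p = 0.00138), and so did Lpcat2, which makes platelet-activating factor (0.58 ± 0.11, adjusted p = 0.00324; and 0.54 ± 0.11, adjusted p = 0.00948). Lpcat1 fell (-0.67, adjusted p = 2.62e-04; and -0.53, adjusted p = 0.00272), and so did Mboat1 (-0.94 ± 0.12, adjusted p = 1.64e-04; and -0.57 ± 0.12, adjusted p = 0.00862).

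Srebf1 encodes the transcription factor SREBP-1, which switches on fatty acid synthesis (chr11:61964707-61990548, minus strand). It had 139.7 and 137 CPM in PBS, 147 and 152 in LD-F1 and 132 and 150 in LD-F1_b. The LD-F1_b libraries lay on both sides of the PBS pair, and the changes were 0.11 ± 0.09 (adjusted p = 0.421, interval -0.08 to 0.31) and 0.03 ± 0.09 (adjusted p = 0.882, interval -0.17 to 0.23). Counts are per gene, so the Srebf1c transcript that LXR is known to switch on cannot be told apart from Srebf1a. Srebf1 shares 109 bases with Rai1 on the other strand, which fell with LD-F1 EVs (log2 -0.56, adjusted p = 0.0107). Of 24 genes of SREBP control and its sterol targets, all tested, each EV raised 1 and lowered 1. That compares with 11.4% and 9.87% of all genes for LD-F1, and 6.44% and 4.54% for LD-F1_b. The medians of the list were -0.01 and -0.07. Without any 1 of the PBS or LD-F1_b libraries LD-F1_b EVs raised and lowered 0, and without either PBS library LD-F1 EVs raised 0. The raised gene was Insig1, which holds SREBPs in the endoplasmic reticulum (0.42, adjusted p = 0.00713; and 0.32, adjusted p = 0.0491), though its LD-F1_b call held in only 4 of 14 alternatives. The lowered gene was Dhcr7, an enzyme of the last steps of cholesterol synthesis (-1.14 ± 0.18, adjusted p = 6.35e-04; and -0.78 ± 0.17, adjusted p = 0.0114).

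The 3 genes whose promoters share the capitals printed above thus had different values. Abca1 was higher with LD-F1 EVs, Srebf1 did not pass the test, and Fasn was lower with LD-F1 EVs (log2 -0.53 ± 0.13, adjusted p = 0.0155). Fasn had 1088 and 1065 CPM in PBS, 879 and 611 in LD-F1 and 815 and 803 in LD-F1_b, with log2 -0.41 ± 0.13 for LD-F1_b (adjusted p = 0.0767). Its LD-F1 change ran from -0.82 to -0.29 over the 14 alternatives and was called in 9 of them. The LD-F1 replicates of Fasn differ as those of Abca1 do, with replicate 1 above replicate 2.

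Other genes known as LXR targets in macrophages numbered 23, of which 20 were in the table and 13 tested. LD-F1 EVs raised 2 and lowered 5 (median log2 -0.34), against 11.4% and 9.87% of all genes tested. LD-F1_b EVs raised 1 and lowered 2 (median -0.13), against 6.44% and 4.54%. The genes lowered by LD-F1 EVs numbered 8 without LD-F1 replicate 1, 3 without either LD-F1_b library, and 2 and 1 without PBS replicate 1 or 2. Those lowered by LD-F1_b EVs numbered 0 without any 1 of the PBS or LD-F1_b libraries. Arl4c, a small GTPase and a known direct LXR target, had 62.3 and 61.4 CPM in PBS, 36.4 and 38.8 in LD-F1 and 42.0 and 47.5 in LD-F1_b, with no overlap (log2 -0.72 ± 0.11, adjusted p = 5.21e-04; and -0.47 ± 0.11, adjusted p = 0.0144). Elovl5, which lengthens polyunsaturated fatty acids, was lowered by LD-F1_b EVs (-0.35 ± 0.10, adjusted p = 0.0363) and by LD-F1 EVs (-0.48, adjusted p = 0.00374). Lpl, the lipoprotein lipase that frees fatty acids from triglyceride-rich lipoproteins, went the other way, from 1348 and 1530 CPM in PBS to 2285 and 2566 in LD-F1 and 2695 and 2403 in LD-F1_b (0.75 ± 0.10, adjusted p = 2.04e-04; and 0.82 ± 0.10, adjusted p = 2.61e-04). The other gene raised by LD-F1 EVs was Plin2, described below. Fasn, given above, and the desaturase genes Fads1 and Fads2 made up the rest of the 5 lowered by LD-F1 EVs, the last 2 named to complete the count.

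**Figure D4:**
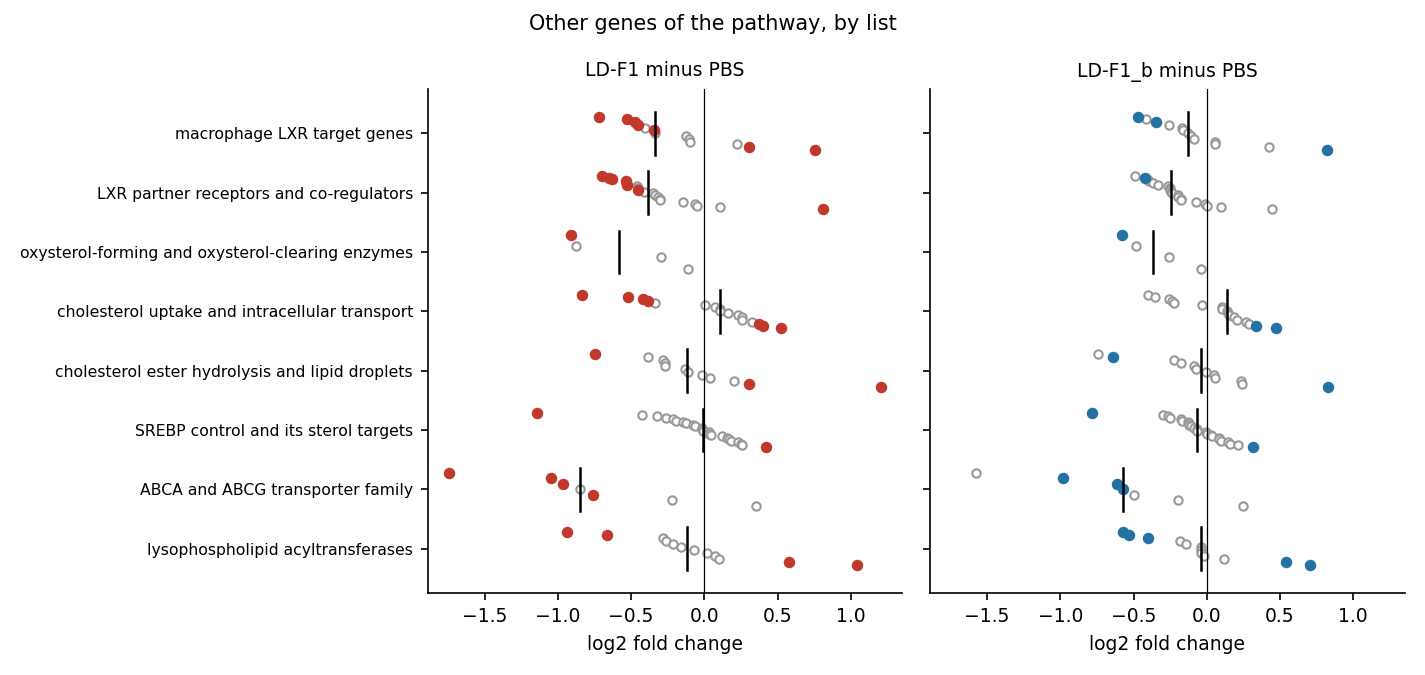
Log2 fold change of every tested gene of 8 lists around the 10 genes, for LD-F1 EVs (left) and LD-F1_b EVs (right); filled points passed the test, open points did not, and the black bar is the median of the list. The ABCA and ABCG family and the LXR co-regulators lie mostly to the left of 0, and the SREBP list is centred near 0.

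Of the esterifying enzymes, Soat2 rose more than any other of the 10 genes and Soat1, the more abundant, was not called. Soat1 (chr1:166898190-166953758, minus strand, 9779 bases) had 623 and 585 CPM in PBS, 527 and 554 in LD-F1 and 516 and 517 in LD-F1_b. All EV libraries lay below both PBS libraries, but the changes missed the threshold (log2 -0.16 ± 0.08, adjusted p = 0.196, interval -0.34 to 0.02; and -0.23 ± 0.08, adjusted p = 0.105, interval -0.40 to -0.05). The result depended on the fit. With library totals Soat1 was called lower with both EVs (-0.27, adjusted p = 0.0333; and -0.30, adjusted p = 0.0312), and with the trend on gene length removed the LD-F1 value was -0.02. Without LD-F1 replicate 2 it was called lower with LD-F1 EVs (-0.20, adjusted p = 0.0317). For LD-F1_b it was called lower with only those libraries and PBS fitted (adjusted p = 0.00372) and without LD-F1 replicate 1 or 2 (0.00271 and 0.00298).

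Soat2 (chr15:108182510-108195317, plus strand, 2218 bases) had 70 and 59 counts in PBS, 310 and 341 in LD-F1 and 234 and 236 in LD-F1_b, or 4.57 and 3.72, 23.2 and 24.3, and 16.3 and 16.3 CPM. The 3 groups did not overlap, and replicates within each EV group lay close together. It was 5.73-fold higher with LD-F1 EVs (log2 2.52 ± 0.17, n = 2 per group, adjusted p = 1.22e-06 by edgeR, interval 2.14 to 2.90) and 3.93-fold higher with LD-F1_b EVs (1.97 ± 0.18, adjusted p = 2.19e-05, interval 1.59 to 2.36). Only 0.502% of the 12740 genes had a higher log2 fold change for LD-F1 and 0.471% for LD-F1_b. The nearest tested protein-coding genes on either side on chromosome 15 were Spryd3 at 16119 bases and Csad at 15310 bases. Genes that failed the filter on low counts or are not protein-coding were skipped in that search. Spryd3 and Csad were not called with LD-F1 EVs (log2 0.25, adjusted p = 0.189, and 0.00, adjusted p = 0.996). They were not called with LD-F1_b EVs either (0.25, adjusted p = 0.239, and 0.23, adjusted p = 0.568).

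Despite that rise Soat1 stayed the more abundant transcript. Soat2 took 0.728% and 0.632% of the counts of both genes in PBS (exact Clopper-Pearson 95% intervals 0.568 to 0.919 and 0.481 to 0.814). It took 4.22% and 4.20% in LD-F1 (3.77 to 4.71 and 3.77 to 4.66) and 3.06% in both LD-F1_b libraries (2.68 to 3.47 and 2.69 to 3.47). Per length, which corrects for the shorter Soat2 transcript, its part of the summed FPKM was 3.13% and 2.73% in PBS, 16.3% and 16.2% in LD-F1 and 12.2% in both LD-F1_b libraries. The summed FPKM itself was 65.8 and 61.5 in PBS, 64.4 and 67.5 in LD-F1 and 60.1 and 60.2 in LD-F1_b. The LD-F1 sums thus overlapped those of PBS and the LD-F1_b sums lay just below them, while the part taken by Soat2 overlapped in no pair of groups.

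Genes that free cholesterol from its ester or coat lipid droplets were examined next to Soat1 and Soat2. Of 21 listed, 12 were tested. LD-F1 EVs raised 2 and lowered 1 (median log2 -0.12), against 11.4% and 9.87% of all genes tested. LD-F1_b EVs raised 1 and lowered 1 (median -0.04), against 6.44% and 4.54%. Nceh1, an enzyme that hydrolyses cholesterol ester in macrophages, had 306 and 293 CPM in PBS, 176 and 181 in LD-F1 and 195 and 189 in LD-F1_b. Every EV library was below both PBS libraries (-0.75 ± 0.08, adjusted p = 4.46e-05; and -0.64 ± 0.08, adjusted p = 3.53e-04). Hilpda, a lipid droplet protein that inhibits triglyceride lipase, rose from 39.1 and 39.5 CPM in PBS to 79.2 and 102 in LD-F1 and 68.2 and 71.5 in LD-F1_b (1.21 ± 0.12, adjusted p = 2.67e-05; and 0.83 ± 0.12, adjusted p = 0.00102). Plin2, the main droplet coat protein of macrophages and also in the list of LXR targets, was higher with LD-F1 EVs (0.31 ± 0.09, adjusted p = 0.0349) and had log2 0.06 with LD-F1_b EVs (adjusted p = 0.77).

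Among genes of cholesterol uptake and transport inside the cell, 17 of the 22 in the table were tested, from a list of 23. LD-F1 EVs raised 3 and lowered 4, against 11.4% and 9.87% of all genes tested. LD-F1_b EVs raised 2 and lowered 0, against 6.44% and 4.54%. The medians of the list were 0.11 and 0.14. Without LD-F1 replicate 2 the counts were 6 and 4 for LD-F1 and 5 and 3 for LD-F1_b, and without LD-F1 replicate 1 they were 3 and 5, and 4 and 3. Without either PBS library they were 1 and 0 for LD-F1, and without any 1 of the PBS or LD-F1_b libraries 0 and 0 for LD-F1_b. Cd36, a scavenger receptor for oxidised LDL, was raised by both (0.52, adjusted p = 6.6e-04; and 0.34, adjusted p = 0.0197). Osbp, a sterol carrier between the endoplasmic reticulum and the Golgi, was raised by both as well (0.40, adjusted p = 0.00764; and 0.47, adjusted p = 0.00512). Stard4, which carries cholesterol between membranes, and Osbpl1a, a late endosomal sterol sensor, fell with LD-F1 EVs (-0.52, adjusted p = 0.00812; and -0.84, adjusted p = 0.0122).

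Compared with each other, the 2 EVs gave no call among the 10 genes, against 0.0157% of all genes higher and 0.408% lower in LD-F1_b. By edgeR, 3 of the 10 had an unadjusted p under 0.05, and DESeq2 also called 0. For LD-F1_b over LD-F1, Soat2 had log2 -0.54 ± 0.15 (adjusted p = 0.224, interval -0.87 to -0.21). Abca1 had -0.31 ± 0.13 (adjusted p = 0.512, interval -0.59 to -0.03), and Abcg1 had 0.29 ± 0.11 (adjusted p = 0.468, interval 0.05 to 0.53). In each of the 3 genes the LD-F1_b libraries lay between PBS and LD-F1. Without LD-F1 replicate 1 the test called Abcg1 (0.42, adjusted p = 0.0141) and Soat2 (-0.58, adjusted p = 0.0488), and without LD-F1 replicate 2 it called Abca1 (-0.53, adjusted p = 1.17e-04). The lists around the 10 genes held 0 calls between the EVs. Both comparisons with PBS share the same 2 control libraries.

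The order of the levels per length also shows where the groups differ. In PBS, mean FPKM ran from Soat1 at 61.8 through Srebf1 at 24.6 and Abcg1 at 23.8, which overlapped, Nr1h2 at 20.5, Abca1 at 13.1, Lpcat3 at 9.09, Apoe at 6.58, Mylip at 3.91 and Soat2 at 1.87 to Nr1h3 at 0.395. In LD-F1 no neighbours overlapped: Soat1 stood at 55.3, Srebf1 at 26.6, Nr1h2 at 23.4, Abca1 at 18.7, Abcg1 at 12.4, Soat2 at 10.7, Lpcat3 at 9.48, Apoe at 5.69, Mylip at 4.40 and Nr1h3 at 0.147. In LD-F1_b, Soat1 stood at 52.8, Srebf1 at 25.1 and Nr1h2 at 23.1, which overlapped, Abcg1 and Abca1 at 15.1 each, Lpcat3 at 10.2, Soat2 at 7.34, Apoe at 5.90 and Mylip at 5.21, which overlapped, and Nr1h3 at 0.151. Soat2 passed Apoe and Mylip in both EV groups and Lpcat3 in LD-F1, and Abcg1 dropped below Nr1h2 in both.

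**Figure D5:**
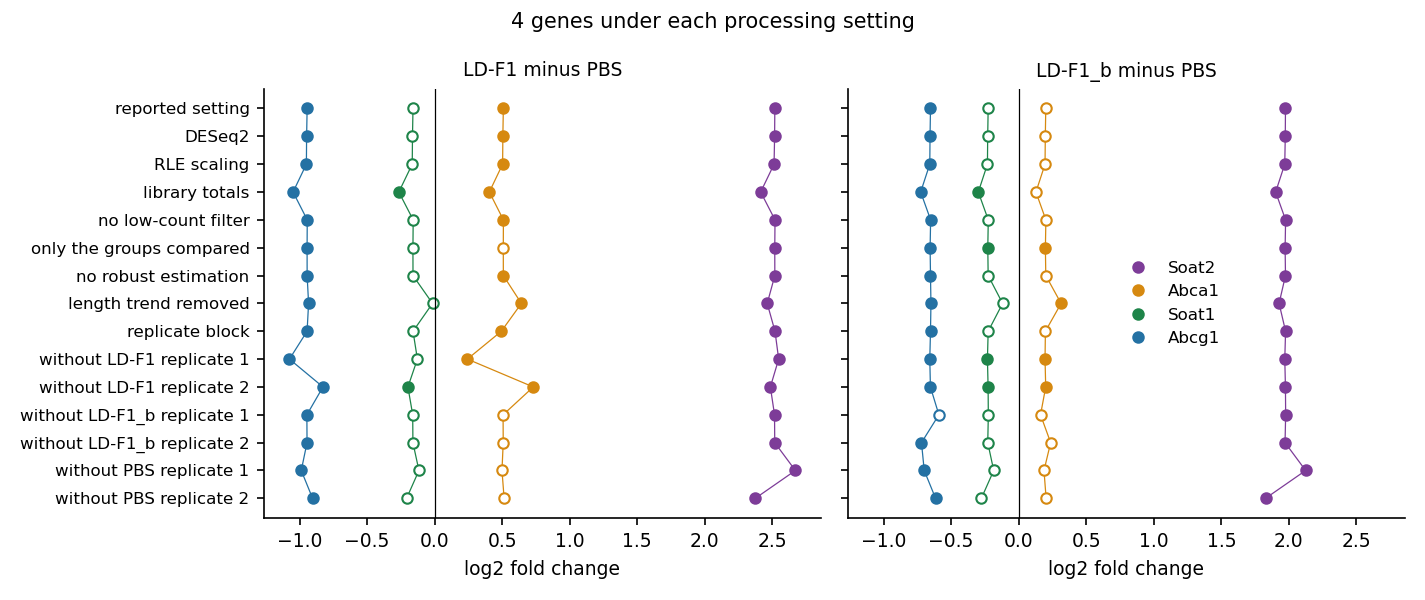
Log2 fold change of Soat2 (purple), Abca1 (orange), Soat1 (green) and Abcg1 (blue) relative to PBS for LD-F1 (left) and LD-F1_b (right) under the reported setting and 14 others; filled points passed the test. Soat2 is filled throughout, Abcg1 in all but 1 LD-F1_b setting, and Abca1 for LD-F1 ranges from 0.24 to 0.73.

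Genes with the pattern most like 6 of the genes were sought by Pearson's r of log2 CPM over the 6 libraries among 8626 genes of at least 10 CPM (8627 for Nr1h3). The libraries fall into 3 groups, whose differences enter r, and no test is attached. Abca1 was closest to Helz2 (r = 0.995), Naa25 (0.994) and Nrp2 (0.994). Abcg1 was closest to Plekhm2, Rfwd3 and Slc2a3 (each 0.998). Mylip was closest to Fbxo25 (0.986), Cstf2t (0.974) and Noct (0.961), and Srebf1 to Ergic3 (0.983), Rab40c (0.981) and Zfp296 (0.976). Soat1 was closest to an entry without a symbol (MGP_C57BL6NJ_G0017357, 0.996), Tpcn2 (0.981) and Hexim1 (0.981). Nr1h3, with its few counts, was closest to Xrcc3 (0.997), St3gal2 (0.987) and Klhl18 (0.985).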

How the data were processed

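Poly(A)-selected RNA was sequenced on an Illumina NovaSeq. The authors deposited raw read counts, 1 whole number for each gene and library. Tools named by the submitters' processing notes are featureCounts 1.5.0-p3, StringTie 1.3.3b, HISAT2 2.0.5 and fastp, and the build is GRCm39. Identifiers in the table are of C57BL/6NJ, with a last chromosome 1 gene ending at 208807027, so positions of genes follow the table, while the promoter windows are RefSeq's in GRCm38.p6 and no position was converted. Neither the strand setting nor the handling of multi-mapping reads is stated there. Of the per-sample columns, 0 stayed unmatched.

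All 6 libraries (2 per group, grouped by their labels) entered 1 quasi-likelihood fit of edgeR 4.0.16 in R 4.3.3, with filterByExpr, TMM scaling, robust estimation and 3 residual degrees of freedom. A call is a Benjamini-Hochberg adjusted p under 0.05 over 12740 genes. CPM are counts scaled by the TMM-adjusted totals of these genes, FPKM divide CPM by the gene length in the table, and the SE of a log2 fold change is computed back from its test. The script was tested on simulated counts. DESeq2 1.42.0, RLE scaling, library totals, no low-count filter, only the groups compared, no robust estimation, removal of a trend on gene length, the replicate number as a block, and leaving out each library were the alternatives. The genes and lists were chosen with earlier results of these data known. From each list the text names, per comparison, up to 2 of the highest and 2 of the lowest log2 fold changes among called genes of at least 5 CPM; others are said to be picked later or stand with their list's count, and some listed genes are not reported here. Likeness uses log2 CPM with a prior count of 2. Marker lists of adipocytes, T, B and NK cells, endothelial cells and erythroid cells had 4 of 5, 6 of 6, 3 of 4 and 3 of 4 members under 1 CPM.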

Additional observations from a re-analysis of the deposited data

How the results depend on the processing

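Soat2 kept its direction and its call under all 14 alternatives for LD-F1 (log2 2.37 to 2.67) and for LD-F1_b (1.83 to 2.12), and Abcg1 under all 14 for LD-F1 (-1.07 to -0.83) and 13 of 14 for LD-F1_b (-0.73 to -0.59). Abca1 was called in 9 of 14 for LD-F1 and in 4 of 14 for LD-F1_b. Library totals gave 2 of the 10 genes lower with LD-F1 and 2 lower with LD-F1_b, through Soat1. Fitting only the groups compared gave 1 higher with LD-F1, and 2 higher and 2 lower with LD-F1_b. Removing the length trend gave 2 higher with LD-F1_b. Leaving out 1 library at a time gave 1 to 2 higher and 1 to 2 lower with LD-F1, 1 to 2 higher and 0 to 2 lower with LD-F1_b, and 0 to 1 in each direction between the EVs. The replicate numbers did not pair the libraries: the correlations of the replicate differences between groups were 0.084, -0.023 and 0.0036. With the replicate block Soat2 was 2.52 and 1.98, Abcg1 -0.94 and -0.65, and Abca1 0.49 for LD-F1 (adjusted p = 0.0107), and no call among the 10 genes changed. The signs that turned were all of uncalled values. With library totals Lpcat3 was -0.044 (LD-F1), Srebf1 -0.043 (LD-F1_b) and Nr1h2 0.016 between the EVs. Leaving out 1 library at a time gave Srebf1 -0.066 to 0.12 with LD-F1_b. Between the EVs it gave Nr1h2 -0.043 to 0.012, Nr1h3 -1.35 to 1.37 (-0.64 without LD-F1 replicate 2), Mylip -0.0076 to 0.46, Apoe -0.11 to 0.23, Lpcat3 -0.016 to 0.23 and Srebf1 -0.18 to 0.0069. The cause of these changes was not tested. For the called genes of the lists, these alternatives were added after the data had been seen: of 742 values for 53 calls, 625 stayed called, 117 missed the threshold and 0 changed sign. Calls lost most often were Plin2 and Nrip1 with LD-F1 (8 of 14 kept), Ncoa2 (7) and Insig1 with LD-F1_b (4). The LD-F1_b calls of Arl4c, Elovl5, Osbp, Dhcr7, Abca2, Abca9 and Lpcat2 held in 10 of 14, those of Lpcat1 and Mboat1 in 11 and that of Cd36 in 9. With LD-F1, Stard4, Osbpl1a, Osbp and Insig1 held in 12 and Ppargc1b and Elovl5 in 13. The number of all genes called ranged from 1213 (without PBS replicate 1) to 4497 (without LD-F1 replicate 1) around 2707 for LD-F1, from 401 to 3142 around 1398 for LD-F1_b, and from 0 to 1152 around 54 between the EVs. Depth limits Nr1h3, whose adjusted p DESeq2 left as NA in both comparisons with PBS.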
